A study of Mus musculus with 88 samples.

Results

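The MHC class I genes and the genes that process antigen for them were followed across 6 tissues of mice exposed to partial body irradiation. The group consisted of 9 genes, chosen by gene symbol out of 16593 on the array: the heavy chain genes H2-K1, H2-D1 and H2-T23, the light chain gene B2m, the transporter genes Tap1 and Tap2, the tapasin gene Tapbp, and the immunoproteasome genes Psmb8 and Psmb9. Of the 25697 probes on the array, 14 carried one of these symbols. A probe was tested in a tissue where its detection p was under 0.01 on at least 3 arrays, and 12 of the 14 probes, covering all 9 genes, met this in at least 1 tissue. B2m (ILMN_2670561) and Tapbp (ILMN_3155492) met it in none. In the thyroid 9 probes of 7 genes were tested, in the lungs, spleen, liver and kidney cortex 12 probes of 9 genes each, and in the kidney medulla 11 probes of 8 genes.

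The mice were 14 female nude mice of the strain Balb/c (CAnN.Cg-Foxn1nu/Crl) at an age of 4 months, an athymic strain that lacks most T cells. All were anesthetized, and the thyroid, lungs, spleen, liver, kidney cortex and kidney medulla were excised 24 h after exposure. Group A received 2 Gy to the collum, the neck region with the thyroid (3 mice). Group B received 2 Gy to the thorax and abdomen (3 mice), and group C received 2 Gy to the collum, thorax and abdomen (3 mice). Controls were sham-irradiated (5 mice). Each irradiated mouse was exposed once to 4 MV photons. In group A the kidneys, liver, spleen and lungs lay outside the field, and in group B the thyroid did. Balb/c mice carry the d haplotype of the H2 locus, and the probe sequences were not used here.

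MHC class I molecules display short peptides from inside the cell on its surface, where cytotoxic T cells and natural killer cells read them. Proteasomes cut the peptides, the TAP transporter moves them into the endoplasmic reticulum, tapasin loads them, and a heavy chain paired with beta-2-microglobulin carries them to the surface. Most of these genes are induced by interferon, and nearly all nucleated cells express them. A change in their level in a whole tissue can come with more RNA per cell or with more cells rich in class I, which cannot be told apart in bulk samples.

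The promoters of the heavy chain genes and of B2m are shown because the kidney medulla results turn on these genes. Each run is the 250 bases before the gene start in RefSeq, on build GRCm38.p6, 5′ to 3′ on the gene's strand. The letters are those of the reference build, and the promoters of these Balb/c mice, of the d haplotype, were not examined. Capitals mark matches, on either strand, to GGGATTCC (a core of the NF-kB site in enhancer A), TTTCACTT (a core of the interferon element of class I genes), GAAA-NN-GAAA (an interferon-response pair, N being any base) and CCAAT. H2-K1 lies at chr17:34000348-34000597 on the minus strand, H2-D1 at chr17:35262844-35263093 on the plus strand, H2-T23 at chr17:36032702-36032951 on the minus strand and B2m at chr2:122147437-122147686 on the plus strand.
H2-K1: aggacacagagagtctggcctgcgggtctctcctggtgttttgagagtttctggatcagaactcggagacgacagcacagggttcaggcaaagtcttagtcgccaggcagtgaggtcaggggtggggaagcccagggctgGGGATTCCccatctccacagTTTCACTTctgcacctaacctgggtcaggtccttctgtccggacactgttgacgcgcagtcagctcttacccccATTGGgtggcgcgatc
H2-D1: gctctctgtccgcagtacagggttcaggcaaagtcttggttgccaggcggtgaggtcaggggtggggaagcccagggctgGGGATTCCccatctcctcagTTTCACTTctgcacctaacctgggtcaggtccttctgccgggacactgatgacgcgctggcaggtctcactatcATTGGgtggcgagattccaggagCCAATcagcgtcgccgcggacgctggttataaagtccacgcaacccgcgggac
H2-T23: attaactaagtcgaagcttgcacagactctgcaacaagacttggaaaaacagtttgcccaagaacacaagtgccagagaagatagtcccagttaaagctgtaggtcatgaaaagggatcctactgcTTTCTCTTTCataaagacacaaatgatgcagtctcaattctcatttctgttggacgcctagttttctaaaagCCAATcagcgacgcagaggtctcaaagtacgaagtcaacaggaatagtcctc
B2m: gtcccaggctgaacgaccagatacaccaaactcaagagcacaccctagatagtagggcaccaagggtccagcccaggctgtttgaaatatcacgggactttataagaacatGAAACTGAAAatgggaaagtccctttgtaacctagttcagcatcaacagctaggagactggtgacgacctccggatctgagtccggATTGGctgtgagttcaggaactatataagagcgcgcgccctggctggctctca

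H2-K1 and H2-D1 each held 1 GGGATTCC and 1 TTTCACTT in these windows, whereas H2-T23 and B2m each held 1 GAAA-NN-GAAA and no GGGATTCC or TTTCACTT. The shares of 32841 promoters of the same length with each motif were 0.889% for GGGATTCC, 1.36% for TTTCACTT, 2.98% for GAAA-NN-GAAA and 33.9% for CCAAT. TTTCACTT was added after the other motifs had been searched. Promoters were matched for 8 of the 9 genes, with none for Tap2. Psmb8 held 1 match to the gamma-interferon activation site TTCNNNGAA, found in 7.02% of promoters. Tap1 and Psmb9 are transcribed in opposite directions from adjacent starts, and their windows shared 225 bases. A match describes letters of the reference build only.

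Some libraries stood apart, and samples are named here by group and replicate number (A1 to C3). The labels do not say whether a number marks the same mouse in different tissues, and a replicate left out of the joint model was removed under that number from every tissue. Between 33.2% and 50.3% of the probes were detected per array. In the kidney medulla, C3 correlated more closely with the controls than with the other irradiated mice (r = 0.989 and 0.980 with the group means over the tested probes), the reverse of the other 8 irradiated mice, and C2 had the lowest correlations (0.953 with irradiated mice and 0.929 with controls). B3 of the medulla held the lung marker Sftpc at a log2 level of 11.10, against at most 5.36 in any other medulla. The thyroid samples differed in tissue: thyroglobulin (Tg) lay at 14.53 in A1, 14.18 in C3 and 14.43 in control 4 but near background, between 4.41 and 4.49, in 6 mice, and A2 alone lacked the muscle transcript Acta1 (4.58) while holding the salivary transcript Smgc at 14.70. The p53 target Cdkn1a (ILMN_2634083), commonly induced by radiation, lay at 10.19 to 10.81 in the spleens of groups B and C, against 6.53 to 7.21 in those of group A and controls.

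No class I or antigen processing probe was regulated in any comparison with controls, where regulated means an adjusted p below 0.01 with a log2 ratio above 0.58 in size (limma, Benjamini-Hochberg adjustment over all probes of a comparison). The shares of all probes regulated in groups A, B and C were 1.39%, 1.78% and 0.13% in the kidney medulla, 0.00822%, 0.0493% and 0.0658% in the spleen, and 0.00749% in the lungs of group B and 0.0188% in the liver of group C, with 0% in the other 10 comparisons. Over 18 comparisons and 204 tests, 5 tests had an adjusted p under 0.05, all in the kidney medulla and all higher than in controls. Among these, H2-K1 (ILMN_2634603) in groups A and B was detected in no control medulla and met the detection rule only through irradiated mice. Its calls are thus a description only. At the 5% level the medulla background was 7.03%, 6.86% and 4.56% of all probes in groups A, B and C in either direction. Outside the medulla 0 of 171 tests passed an adjusted p of 0.05, 12 had an unadjusted p under 0.05, and the lowest adjusted p was 0.255 (limma). The 95% confidence interval of the log2 ratio lay within 1 on either side of 0 in 155 of the 204 tests.

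**Figure D1:**
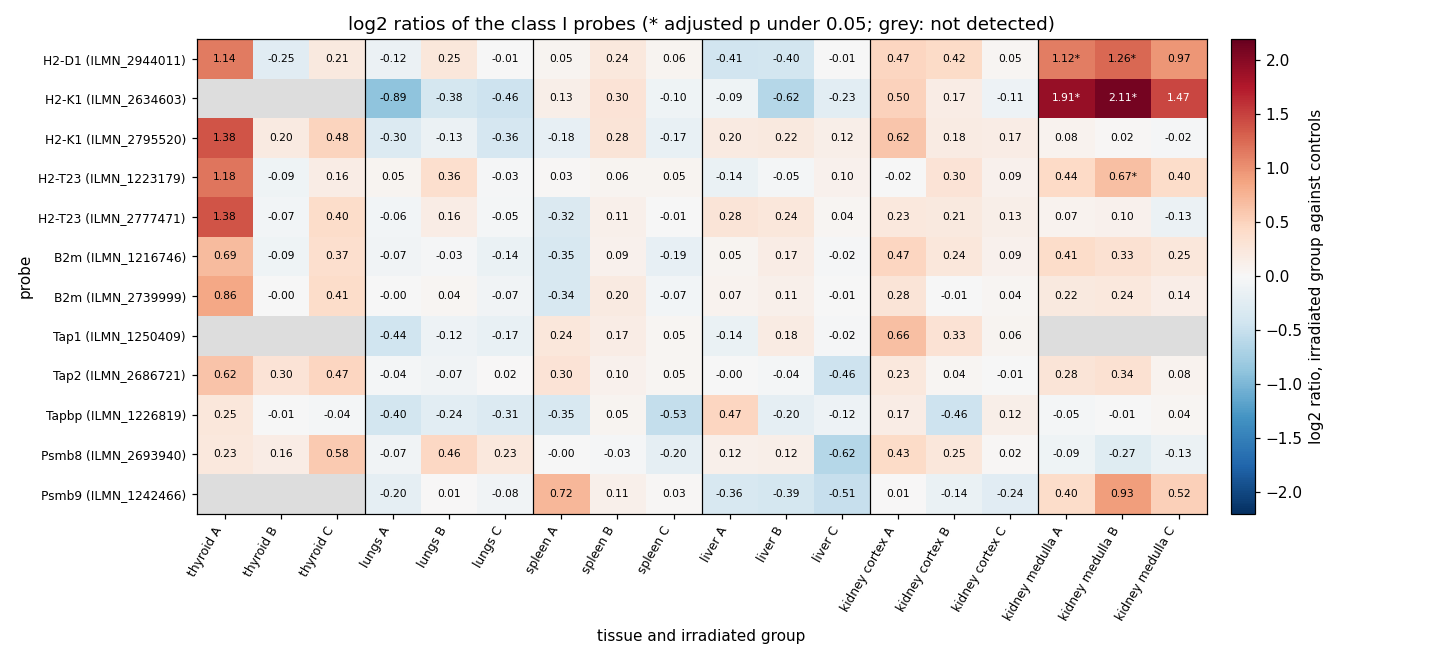
Each cell gives the log2 ratio of 1 probe (rows) in 1 irradiated group against controls (columns, by tissue), with 3 irradiated and 5 control mice behind each value. Stars mark the 5 values with an adjusted p under 0.05, all in the kidney medulla, and grey cells were not tested. The starred values of H2-K1 (ILMN_2634603) come from a probe that was detected in no control medulla.

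H2-K1 and H2-D1, the classical heavy chains that present peptide to cytotoxic T cells, were the members with the largest log2 ratios in the kidney medulla. For H2-K1 (ILMN_2634603) the log2 levels were 7.28, 6.04 and 6.12 (group A), 6.66, 6.35 and 6.997 (group B) and 6.69, 6.87 and 4.54 (group C), against 4.50, 4.55, 4.51, 4.63 and 4.64 in controls. All 3 mice of group A and of group B lay above every control, and in group C the third mouse lay among the controls. The probe was detected in the 8 irradiated mice other than C3 and in no control, so that the ratio is only a bound. Its fitted log2 ratio was 1.91 for group A (95% interval 0.99 to 2.83, adjusted p = 0.0179) and 2.11 for group B (1.19 to 3.02, adjusted p = 0.0113). For group C it was 1.47 (0.55 to 2.39), which did not pass (adjusted p = 0.0641, limma). Set against the lowest signal of any detected probe on each control array, H2-K1 was at least 1.59-fold higher in group A, 1.82-fold in group B and 1.17-fold higher in group C.

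A second H2-K1 probe did not share this pattern. H2-K1 (ILMN_2795520) lay at 10.52, 9.90 and 9.41 (group A), 9.73, 9.36 and 10.56 (group B) and 9.63, 9.88 and 10.02 (group C), against 9.94, 10.06, 9.95, 9.45 and 9.92 in controls. The groups overlapped, and the log2 ratios were 0.08, 0.02 and -0.02, with intervals that ran from -0.60 to 0.66 over the groups. In the kidney cortex ILMN_2634603 was detected in all 14 mice, at 5.84 to 7.70, with 5.84 to 6.36 in controls. The medullas of the controls and of C3 were thus the only kidney samples in which this probe was not detected.

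**Figure D2:**
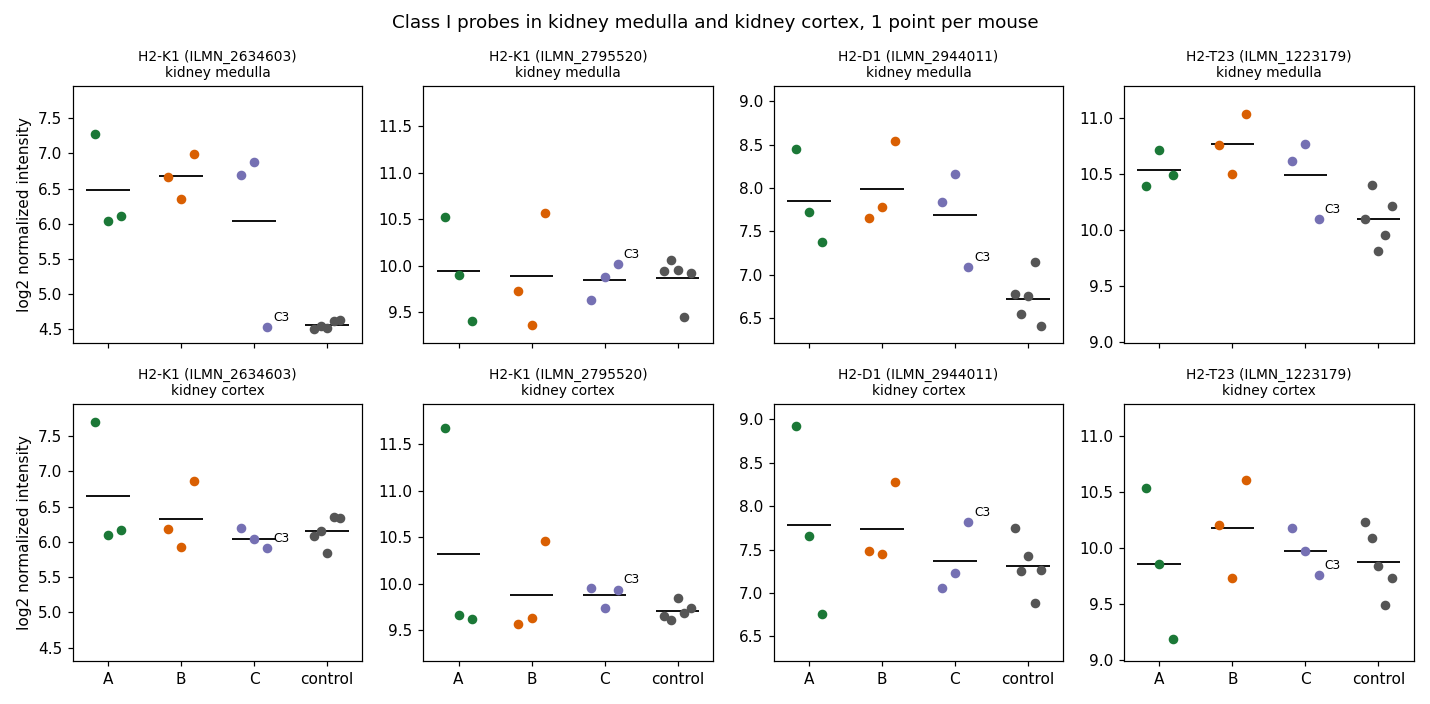
Points are log2 normalized intensities of single mice by group (3 in each irradiated group, 5 controls), lines are group means, and columns are probes in the kidney medulla (top) and kidney cortex (bottom), with 1 scale per probe. In the medulla H2-K1 (ILMN_2634603) lay at 6.04 to 7.28 in 8 irradiated mice and at 4.50 to 4.64 in C3 and the controls, while H2-K1 (ILMN_2795520) overlapped between groups.

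H2-D1 (ILMN_2944011) followed the first H2-K1 probe in the medulla. Its log2 levels were 8.45, 7.73 and 7.38 (group A), 7.65, 7.78 and 8.54 (group B) and 7.83, 8.16 and 7.09 (group C), against 6.78, 6.55, 6.76, 7.14 and 6.41 in controls. Only C3, at 7.09, lay within the control range. The log2 ratio was 1.13 for group A (0.50 to 1.75, adjusted p = 0.0323) and 1.26 for group B (0.64 to 1.88, adjusted p = 0.0207), or 2.18-fold and 2.40-fold. For group C it was 0.97 (0.35 to 1.59), which did not pass (adjusted p = 0.0677, limma). Higher calls at an adjusted p under 0.05 made up 5.29%, 5.44% and 3.21% of all probes in the 3 groups.

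H2-T23 encodes Qa-1, a nonclassical heavy chain read by natural killer cells. H2-T23 (ILMN_1223179) lay at 10.39, 10.71 and 10.49 (group A), 10.76, 10.50 and 11.04 (group B) and 10.62, 10.77 and 10.09 (group C) in the medulla, against 10.096, 10.40, 9.81, 9.96 and 10.22 in controls. Group B lay above all controls, with a log2 ratio of 0.67 (0.28 to 1.06, adjusted p = 0.0408, limma). The ratios of 0.44 for A (adjusted p = 0.160) and 0.40 for C (adjusted p = 0.179) did not pass. The other H2-T23 probe (ILMN_2777471) gave 0.07, 0.10 and -0.13 in groups A, B and C, with intervals between -0.55 and 0.52. In all, 2 of the 11 probes lay wholly above the controls in group A and 4 in group B (H2-K1 ILMN_2634603, H2-D1, H2-T23 ILMN_1223179 and Psmb9), beside 11.4% and 11.5% of all probes. Among these, H2-K1 (ILMN_2634603) and Psmb9 met the detection rule only through irradiated mice, so that the counts are a description only.

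B2m, the light chain without which heavy chains do not reach the surface, gave positive log2 ratios in the medulla that did not pass the test. B2m (ILMN_1216746) lay at 13.71, 13.003 and 12.90 (group A), 13.03, 12.78 and 13.56 (group B) and 13.14, 13.19 and 12.81 (group C), against 12.89, 12.71, 12.91, 12.77 and 12.69 in controls. A1 and B3 stood highest, and A3, B2 and C3 lay within the control range. The log2 ratios were 0.41, 0.33 and 0.25, with adjusted p between 0.228 and 0.438 (limma). B2m (ILMN_2739999) gave 0.22, 0.24 and 0.14, and across the 14 medullas its correlation with the first probe was 0.95.

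Tap1 and Tap2 form the peptide transporter, and tapasin holds the empty heavy chain beside it. Tap1 was below the detection rule in the medulla, Tap2 gave ratios of 0.28 (A), 0.34 (B) and 0.08 (C), and Tapbp gave -0.05, -0.01 and 0.04, with none passing the test. Of the immunoproteasome subunits, which replace catalytic subunits of the constitutive proteasome, Psmb8 gave -0.09, -0.27 and -0.13. Psmb9 (ILMN_1242466) lay at 6.01, 5.71 and 4.92 (group A), 5.69, 5.87 and 6.68 (group B) and 6.17, 5.42 and 5.42 (group C), against 5.02, 5.11, 5.30, 4.87 and 5.44 in controls. Group B lay above all controls with a log2 ratio of 0.93 (0.34 to 1.52), but its adjusted p was 0.0589 (limma). The probe was detected in 2 of 3 mice of group B and in no control, and the ratio is at least 1.205-fold. The 5 calls in the medulla were thus of H2-K1 (ILMN_2634603), H2-D1 and H2-T23 (ILMN_1223179). The probes of H2-K1 (ILMN_2634603) and Psmb9 met the detection rule only through irradiated mice.

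The group C values in the medulla turned on C3. Without it, H2-K1 (ILMN_2634603) in group C had a log2 ratio of 2.22 (adjusted p = 0.000274) and H2-D1 of 1.27 (adjusted p = 0.0111), and 4 member tests were regulated instead of 0 (limma). The share of all probes regulated without C3 is not given, so that this count is no result about the members alone. Cdkn1a in the medulla of C3 was 8.78, in the range of group B (8.67 to 9.30) and above the controls (6.95 to 7.83). Its Cdkn1a level thus lay with group B, whose kidneys were in the field, and its H2-K1 level with the controls. Group A, whose kidneys were outside the field, had Cdkn1a at 7.12, 7.68 and 7.34, within the control range. Over all 12296 probes of the medulla, 5.64% lay higher in the 8 other irradiated mice than in every control and C3. Another 2.89% lay lower in all 8. Of the 11 member probes 2, H2-K1 (ILMN_2634603) and H2-D1, were among those that lay higher. This split was noticed in these data, and the H2-K1 probe met the detection rule only through irradiated mice. The count of members beside the share of all probes is thus no test. The part of this split among the libraries in the class I values was not tested.

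Without A1 the medulla H2-K1 ratio of group A was 1.51 (adjusted p = 0.100) and that of H2-D1 was 0.83 (adjusted p = 0.164, limma). Without B3, which carried Sftpc, the group B ratios were 1.94 for H2-K1 (adjusted p = 0.0600), 0.99 for H2-D1 (adjusted p = 0.104) and 0.53 for H2-T23 (adjusted p = 0.176). All these log2 ratios stayed above 0, and none of the calls held. The H2-D1 call was also lost without A2 or without control 1, 2, 3 or 5 in group A (adjusted p = 0.0569 to 0.0875) and without B2 in group B (0.0615). The H2-T23 call was lost without any of 9 mice (A1, A3, B1, B2, B3 and controls 1, 3, 4 and 5), with adjusted p of 0.0534 to 0.176. With the authors' normalized values as the input, the H2-K1 ratios were 0.69 in group A and 0.75 in group B, with adjusted p of 0.0288 and 0.0196 (limma).

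Markers of other cells in the same medullas were summed beside these values. Natural killer and T cell markers (2 of 18 listed genes detected, Prf1 and Ccl5, with none of the CD3 chains) had summed signals of 944 to 1109 in group A, 1224 to 1510 in group B and 699.7 to 1287 in group C, against 498 to 778 in controls, and Prf1, the pore protein of cytotoxic cells, was regulated in group B (log2 ratio 1.11, adjusted p = 0.00667). Macrophage markers (7 of 15 detected) summed to 6150 to 8120 in group A, 5931 to 10062 in group B and 3562 to 5643 in group C, against 4090 to 6934 in controls, with Adgre1 (1.28, adjusted p = 0.00549) and Lyz2 (1.68, adjusted p = 0.00574) regulated in group B. C1qb, also of this list, overlapped between groups: 7.32 to 8.04 (A), 7.44 to 8.30 (B) and 6.45 to 7.89 (C), against 7.67 to 8.05 in controls. For MHC class II genes, which act in antigen-presenting cells, the sums (6 of 10 detected) were 5773 to 12071 in group A, 4647 to 8647 in group B and 3468 to 5695 in group C, against 6728 to 7264 in controls. Within this list H2-Aa, a class II alpha chain, lay at 5.61, 5.40 and 5.77 (group A), 5.90, 5.43 and 6.17 (group B) and 5.85, 5.11 and 4.79 (group C), against 4.55, 4.60, 4.63, 4.86 and 4.97 in controls. The 8 irradiated mice other than C3 lay above every control and C3 lay among the controls, as for H2-K1 (ILMN_2634603). The log2 ratios were 0.87, 1.11 and 0.53 in the 3 groups (adjusted p = 0.0307, 0.0101 and 0.148, limma). In every control H2-Aa lay below Psmb9, which was not detected there. H2-Aa thus met the detection rule only through irradiated mice, and its ratios have no exact size. Cd74, of the same list, lay at 10.96 to 12.50 (group A), 10.73 to 11.45 (group B) and 10.47 to 11.34 (group C), against 11.41 to 11.49 in controls. The part of these cells and transcripts in the class I values was not tested.

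Genes that act with the members gave few calls. Among interferon-induced genes, 19 of 30 were detected in the medulla by their brightest probe, and 3, 6 and 9 gave higher levels in groups A, B and C at an unadjusted p under 0.05, or 15.8%, 31.6% and 47.4%, beside 22.9%, 21.7% and 26.6% of all genes in either direction, with 1 regulated in group B. Counting every probe, Ifit3 (log2 ratio 1.15, adjusted p = 0.00806) and Oasl2 (1.29, adjusted p = 0.0058) were regulated in group B. The medians of the list were 0.04, 0.41 and 0.37 in groups A, B and C, beside -0.05, -0.04 and -0.02 over all genes. In the constitutive proteasome core 13 of 15 genes were detected, with medians of -0.02, -0.04 and -0.02, and Psma3 rose in group C (0.53, adjusted p = 0.0373). Of 9 detected other class I genes (26 listed) none had an adjusted p under 0.05. Among 15 detected genes of class I transcription and interferon signalling (21 listed), Jak1, a kinase of interferon receptors, rose in groups A, B and C (0.97, 0.99 and 1.33, adjusted p = 0.0466, 0.0420 and 0.0243, limma). Of 16 detected antigen processing genes outside the 9 (19 listed), only the chaperone gene Hspa5 passed an adjusted p of 0.05, with log2 ratios of 1.74, 1.80 and 1.52 (adjusted p = 0.0168, 0.0148 and 0.0454, limma).

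In the thyroid, group A gave the highest member ratios outside the medulla, and none passed. H2-K1 (ILMN_2795520) lay at 10.63, 10.68 and 8.003 in group A, against 8.42, 7.92, 7.79, 9.22 and 8.62 in controls. H2-D1 lay at 7.13, 7.47 and 5.80 in group A, against 5.73, 5.55, 5.44, 5.73 and 5.87 in controls. H2-T23 (ILMN_2777471) lay at 10.93, 11.70 and 8.28 in group A, against 8.94, 8.49, 8.37, 9.82 and 9.01 in controls. A1 and A2 were above all controls for these 3 probes, and A3 lay within the control range for H2-K1 and H2-D1 and below it for H2-T23. The log2 ratios were 1.38 (0.21 to 2.55) for H2-K1, 1.14 (0.37 to 1.91) for H2-D1 and 1.38 (0.03 to 2.73) for H2-T23, each with an adjusted p of 0.497 (limma).

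A1 and A2 also held transcripts of other glands in the thyroid samples: A1 held the parathyroid hormone transcript Pth at 13.98, and A2 held Smgc without muscle transcripts. Cd74, the class II invariant chain, lay at 11.75 and 11.07 in A1 and A2 and at 6.86 in A3, against 7.35 to 10.46 in controls. Without A2 the ratios of H2-K1, H2-D1 and H2-T23 were 0.92, 0.81 and 0.68, none past the threshold, and without A3 they were 2.26, 1.64 and 2.39, with adjusted p of 0.0455, 0.0471 and 0.0471 (limma). Of the 9 probes, 3 had an unadjusted p under 0.05 in group A, against 8.45% of all probes, and none did in groups B (0.889% of all probes) and C (1.35%). The part of the tissue make-up in these values was not tested.

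In the kidney cortex 1 mouse stood apart. A1 was the highest of 14 mice for 10 of the 12 probes, where it was highest for 4.57% of all probes. H2-K1 (ILMN_2795520) lay at 11.68 in A1 and at 9.56 to 10.46 in the other 13 mice, and B2m (ILMN_1216746) lay at 14.61 in A1 and at 13.15 to 13.996 in the others. Cd74 was 13.84 in this cortex and at most 11.76 in the others, and the class II sum was 32928 in A1 and 4322 to 11673 in the rest, whose part in the class I values was not tested. The H2-K1 log2 ratio of group A was 0.62, and -0.06 without A1. Tap1 gave 0.66 in group A (0.04 to 1.28, adjusted p = 0.622) and was the only cortex probe with an unadjusted p under 0.05, where 7.76%, 13.9% and 8.6% of all probes were so in groups A, B and C. Tap1 was detected in 2 of 3 cortices of group A and 2 of 5 of the controls, near background.

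In the lungs 1 control stood out. Control 4 was the highest of 14 mice for 11 of 12 probes, and for 8.44% of all probes. H2-K1 (ILMN_2634603) lay at 7.40, 6.80 and 6.99 in group A, against 7.70, 7.59, 7.67, 9.26 and 7.54 in controls, so that group A lay below all controls with a log2 ratio of -0.89 (-1.62 to -0.15), which did not pass. This was the only lung probe of 12 with an unadjusted p under 0.05, in any group. The shares of all probes were 1.09%, 5.35% and 5.95% in groups A, B and C. Control 4 also had the highest lung Cd74 (14.28, others at most 13.41) and C1qb, a macrophage transcript (10.02, others at most 9.18). Transcripts induced by interferon were high in the same library: the chemokine Cxcl9 lay at 12.12 (others at most 7.002), Gbp2 at 12.37 (others at most 11.40) and Nlrc5, a transactivator of class I genes, at 9.27 (others at most 8.17). The part of these transcripts in the class I values was not tested.

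**Figure D3:**
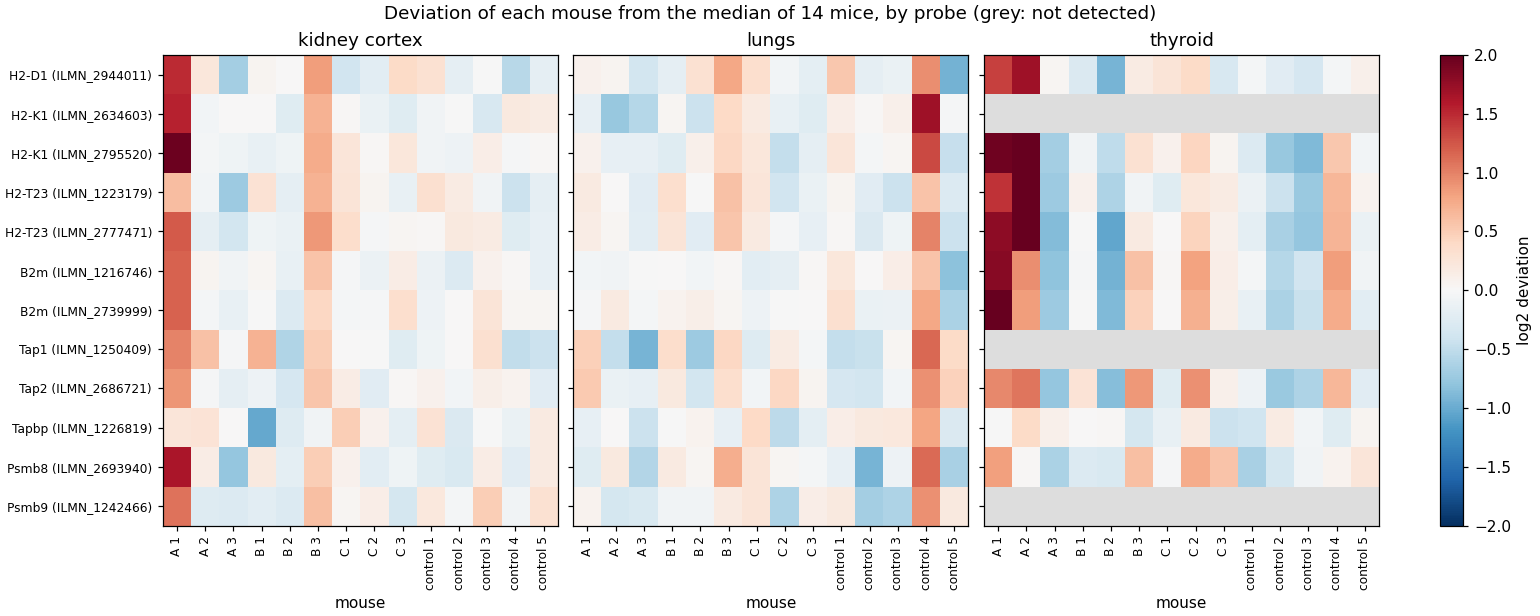
Colours give the log2 deviation of each mouse (columns) from the median of 14 mice for each probe (rows) in the kidney cortex, lungs and thyroid, with colour capped at 2 in either direction and grey for probes not tested. Cortex A1 was highest for 10 of 12 probes and lungs control 4 for 11 of 12, and thyroid A1 and A2 together held the highest value for all 9. For the thyroid the share of all probes is not given, and A1 and A2 held transcripts of other glands.

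The spleen is rich in lymphocytes, and no member passed the test there. B2m (ILMN_1216746) lay at 13.85, 13.93 and 13.83 (group A) and 14.45, 14.15 and 14.33 (group B), against 14.17, 14.22, 14.27, 14.28 and 14.15 in controls. Group A lay below all controls, with a log2 ratio of -0.35 (-0.63 to -0.07, adjusted p = 0.396), and with -0.44 against group B (adjusted p = 0.106, limma). Psmb9 gave 0.72 in group A (adjusted p = 0.427), and A1 was highest for 6 of 12 spleen probes, beside 13.9% of all probes. Tapbp gave -0.53 in group C (adjusted p = 0.307), where all 3 mice lay below all controls. In total 2, 0 and 1 of 12 probes had an unadjusted p under 0.05 in groups A, B and C, against 9.95%, 9.6% and 10.2% of all probes.

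Other lymphocyte transcripts were measured in the same spleens. In group C all 10 detected MHC class II genes and all 8 detected B cell markers had an unadjusted p under 0.05 with lower levels, with medians of -0.96 and -1.20, although only the B cell gene Ms4a1 had an adjusted p under 0.05 (log2 ratio -1.74, adjusted p = 0.0241, limma). The median of the 9 members by their brightest probes was -0.01 in that comparison. B cell markers summed to 3316 to 13441 in group C, against 11419 to 23246 in controls. The part of these cells in the class I values was not tested.

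In the liver, which contains hepatocytes and resident macrophages, no member passed the test. H2-D1 lay at 8.33, 8.03 and 7.80 (group A) and 8.13, 7.81 and 8.28 (group B), against 8.33, 8.24, 8.55, 8.77 and 8.45 in controls, and the groups overlapped. The ratios were -0.41 in group A (-0.79 to -0.04, adjusted p = 0.564) and -0.40 in group B (adjusted p = 0.923), while group C was at -0.01. In group C, Psmb9 gave -0.51 (adjusted p = 0.255) and Tap2 gave -0.46 (adjusted p = 0.302, limma). The lowest liver ratios were -0.62 for H2-K1 (ILMN_2634603) in group B (mean 4.85, against 5.47 in controls, adjusted p = 0.957) and -0.62 for Psmb8 in group C (5.88, against 6.51 in controls, adjusted p = 0.403, limma). This H2-K1 probe was detected in no liver of group B and in 3 of 5 controls, so that its ratio has no exact size. In groups A, B and C, 1, 1 and 2 of 12 probes had an unadjusted p under 0.05, against 8.04%, 5.31% and 15.4% of all probes. In the kidney medulla the counts were 3, 4 and 3 of 11 probes, all higher, against 23.6%, 22.8% and 26.6% of all probes in either direction.

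Irradiated groups were also compared with each other. None of 204 member tests was regulated or had an adjusted p under 0.05, and 8 had an unadjusted p under 0.05 (limma). The share of all probes at the unadjusted level is not given for these comparisons, so that the count of 8 is a description only. Regulated shares of all probes were 0.0822% for group A against B and 0.074% for C against A in the spleen, 0.0188% for C against A in the liver, 0.00798% for C against B in the kidney cortex and 0% in the other 14 comparisons. H2-D1 in the thyroid had the largest log2 ratio among these 8, for group A against B (1.39, adjusted p = 0.465), and group A held the high mice A1 and A2. H2-D1 was detected in 1 of 3 thyroids of group B, so that this ratio has no exact size. Group C was set against the sum of the A and B ratios to ask whether both fields added up. None of 68 member tests was regulated, with 0% of all probes regulated in each of the 6 tissues. H2-D1 in the medulla had a difference of -1.42 on the log2 scale, which did not pass (adjusted p = 0.0962, limma). For H2-K1 (ILMN_2634603) the probe was detected in no control medulla, so that its difference from the sum has no exact size and is not given. A, B and C share the controls in this sum.

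Class I levels differed between the tissues of control mice. In a joint model over all tissues, 57 of 72 tests of a tissue against the mean of the others passed an adjusted p under 0.01 with a difference of at least 0.58. The spleen was higher for 11 of 12 probes (28.1% of all probes were higher), the lungs for 10 (22%) and the liver for 8 (19.8%). The thyroid was lower for 11 (26.7% of all probes were lower), the kidney cortex for 8 (18.5%) and the kidney medulla for 9 (18.5%). The highest difference was 2.52 for Tap1 in the spleen and the lowest was -2.43 for H2-T23 (ILMN_1223179) in the thyroid. Tap1 was detected in 2 of 5 control cortices, 1 of 5 control thyroids and no control medulla. H2-K1 (ILMN_2634603) was detected in 1 of 5 control thyroids and no control medulla, and Psmb9 in no control thyroid or medulla. Differences of these 3 probes thus depend on the background level and have no exact size. The levels are those of the excised samples: Tg was near background in 3 of the 5 control thyroids (4.49, 4.41 and 4.43), and all 5 held the muscle transcripts Acta1 (14.13 to 14.26) and Ckm (14.24 to 14.53).

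The order of tissues was similar for most members. For Tap1 the control means were 8.42 in the spleen, 7.42 in the lungs, 6.69 in the liver, 5.30 in the cortex, 5.07 in the medulla and 4.99 in the thyroid, and the first 3 neighbouring steps passed an adjusted p of 0.05 (0.00146, 0.0167 and 1.94e-05, limma). The cortex, medulla and thyroid means of Tap1 lay near background, so that the step from liver to cortex has no exact size. For B2m (ILMN_1216746) the spleen, lungs and liver, at 14.22, 14.14 and 14.02, did not differ between neighbours (adjusted p = 0.821 and 0.688), the cortex followed at 13.04, the medulla at 12.80 and the thyroid at 12.14. Of these later steps, cortex to medulla did not pass (adjusted p = 0.731). For Psmb9 the liver at 7.65 and the cortex at 5.65 were separated by 2.01 (adjusted p = 1.72e-10). For H2-K1 (ILMN_2634603) the medulla was last, at 4.54, though not below the thyroid beyond the spread (adjusted p = 0.151). Both of these means lay near background, as the probe was detected in no control medulla and 1 control thyroid. Tapbp passed in no tissue, with control means between 5.90 and 6.52.

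**Figure D4:**
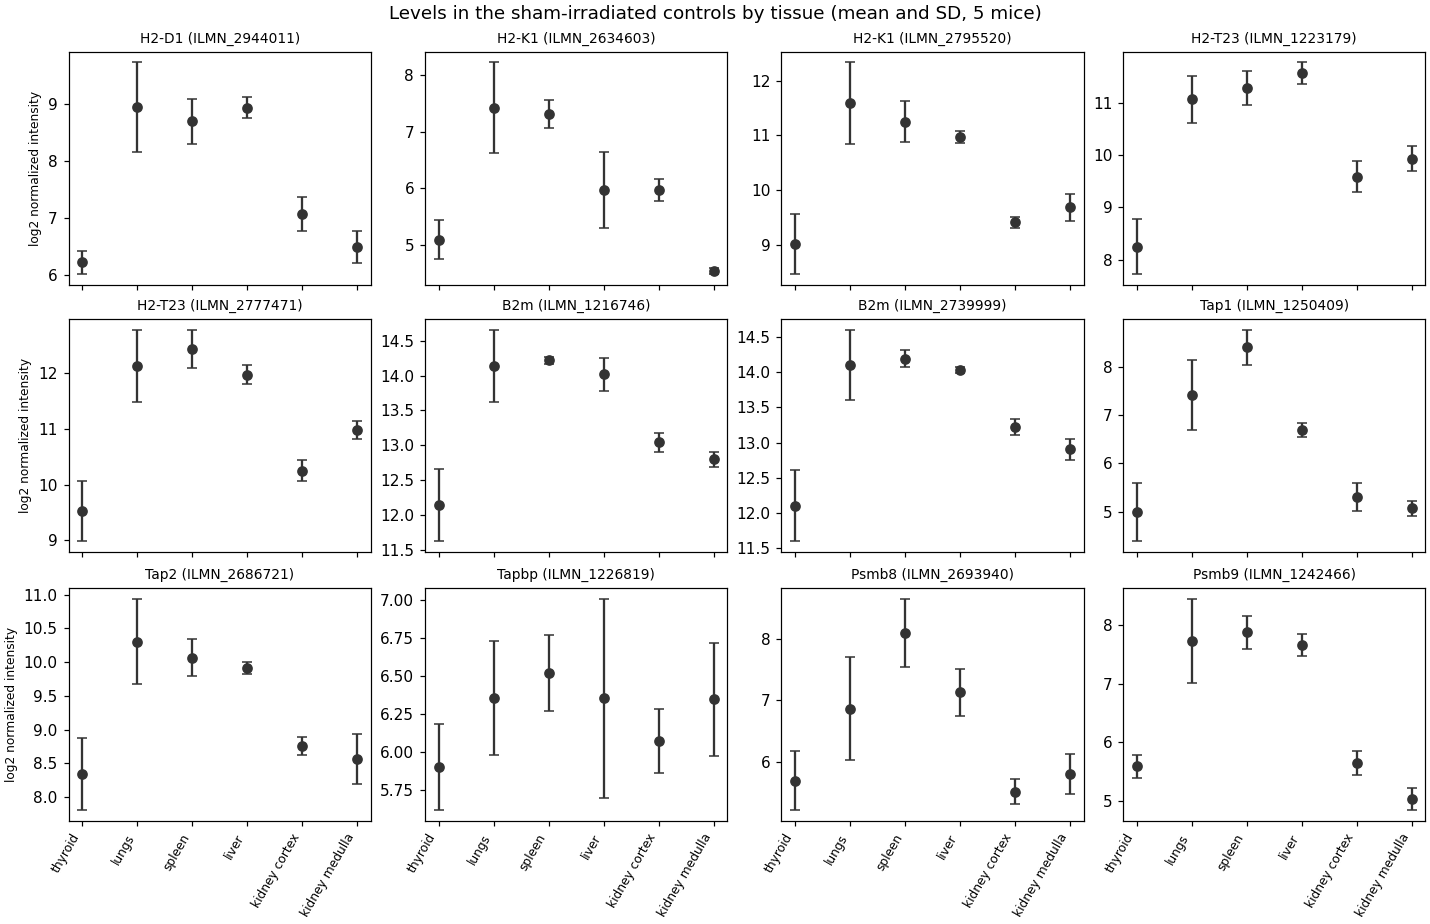
Points are mean log2 normalized intensities of 5 control mice with SD bars, by tissue and probe. Spleen, lungs and liver lay above both kidney regions and the thyroid for most probes, while the Tapbp means lay between 5.90 and 6.52.

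The response of 1 tissue was compared with that of the other 5 as an interaction, which differed for 7 of 216 member tests at an adjusted p under 0.05. In the kidney medulla these were H2-K1 (ILMN_2634603) in group A (1.90, adjusted p = 0.00187), group B (2.04, adjusted p = 0.000661) and group C (1.60, adjusted p = 0.0266), each higher than the mean response of the other tissues. This probe was detected in 8 irradiated medullas and in no control, and met the detection rule only through the irradiated mice, so that these values depend on the background level and give no exact size. In the thyroid of group A they were H2-K1 (ILMN_2795520; 1.24, adjusted p = 0.0336), both H2-T23 probes (1.04 and 1.27, adjusted p = 0.0354 and 0.0205) and Tap1 (1.04, adjusted p = 0.0368, limma), although Tap1 was below the detection rule in the thyroid. Higher calls of this kind made up 3.41%, 3.25% and 1.33% of all probes in the medulla of groups A, B and C and 5.89% in the thyroid of group A. All 4 thyroid calls were lost without A2 (0.35 to 0.66, adjusted p = 0.748 to 0.878), without control 2 (0.93 to 1.15, adjusted p = 0.0763 to 0.119) and without control 3 (0.93 to 1.15, adjusted p = 0.0778 to 0.123). Without A1, control 1 or control 5, 3, 3 and 2 of the 4 were lost. The group C value of the medulla did not pass without C1 (1.26, adjusted p = 0.251), C2 (1.18, adjusted p = 0.618), control 2 (1.59, adjusted p = 0.0565) or control 3 (1.59, adjusted p = 0.0732, limma). With the authors' values as the input, this value was 0.66 (adjusted p = 0.0887) and the thyroid value of Tap1 was 0.40 (adjusted p = 0.177, limma), and neither passed.

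The correlations between members over the mice of each tissue are given as a description, with no test between tissues. Over the 14 mice the median correlation between pairs of member genes was 0.78 in the kidney cortex, 0.70 in the thyroid, 0.59 in the spleen, 0.58 in the lungs, 0.43 in the medulla and 0.28 in the liver. Without the libraries that stood apart, left out after seeing the data, it was 0.53 in the cortex without A1, 0.60 in the thyroid without A1 and A2, and 0.30 in the lungs without control 4. Pairs with Tapbp had lower medians, of 0.19 in the cortex and -0.24 in the liver. Tap1 and Psmb9, which share promoter sequence, correlated at 0.83 in the spleen, 0.60 in the liver, 0.53 in the lungs and 0.50 in the cortex. The lung and cortex values lay below the medians of all pairs in those tissues. The points share arrays, and the genes of 1 mouse share its tissue make-up.

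Over the 24 tissue and group means, the nonmember genes most like the members included other class I genes. Among 6357 genes detected in all tissues, the 5 nonmember genes with the highest correlation with the member mean were Gm8909 (r = 0.987), H2-Q5 (0.965), H2-Q7 (0.963), Ly6e (0.959) and Parp14 (0.958), where the points share arrays and tissues. The member mean was that of the 7 members detected in all tissues. Each of them is part of this mean, so that their own correlations are partly built in. Of these members, H2-K1 (0.981), H2-T23 (0.979), Tap2 (0.964), H2-D1 (0.961) and B2m (0.959) ranked within the first 10. Psmb8 followed at 0.882, and Tapbp lay at 0.460. Heavy chain genes are close in sequence, so that the signal of a probe can include a related gene.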

How the data were processed

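The deposited table without normalization gave, per the file headers, a summarized intensity and a detection p-value for each probe and array of the Illumina MouseRef-8 platform. The authors also deposited intensities preprocessed and quantile-normalized in the BioArray Software Environment, used here as an alternative. The 3 arrays of liver A1 and of thyroid control 5 were averaged on the log2 scale, so that n counts mice (88 arrays in all).

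Intensities were background-corrected with nec (limma 3.58.1, R 4.3.3; offset 16, which limits how far low signals can fall), then quantile-normalized per tissue, on the log2 scale. Probes detected at p under 0.01 on at least 3 arrays were tested: 11705 in the thyroid, 13356 in the lungs, 12167 in the spleen, 10623 in the liver, 12527 in kidney cortex and 12296 in kidney medulla. One linear model per tissue over all 14 mice (lmFit, eBayes) gave each contrast, with p adjusted over all tested probes. A joint model over tissues covered 15933 probes. The fits were tested on simulated data. The number of arrays limits the precision.

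All probes of the 9 genes that met the detection rule were named, with list genes that were regulated or had the smallest p of a list, and the 5 genes most alike. Tg, Pth, Acta1, Smgc, Sftpc, Cd74, C1qb, Ckm, Cxcl9, Gbp2, Nlrc5, H2-Aa and Cdkn1a, which describe single libraries, and Ms4a1, Jak1 and Psma3 were picked after their values were seen. The members and lists were chosen with earlier results of these data known. Samples came from single animals, without pooling. Replicate numbers did not pair the samples of different groups (mean correlations of deviations from -0.08 to 0.04 by tissue), so that no block was used. Alternatives were the authors' values, no background correction, normalization over all tissues, no detection filter, trend and robust variance, 2 kinds of replicate block, fewer groups or tissues and leaving out each replicate (under its number in every tissue). A BeadChip block was not run, as the columns name no chip. Promoters came from RefSeq tables of build GRCm38.p6, and motif matches were sought on both strands.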

Additional observations from a re-analysis of the deposited data

Results flagged for a closer look

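In 3 of 68 control groups of 5 mice, 1 mouse lay farther from the rest than the 95% critical value of Dixon's test (0.71); chance gives about 1 in 20. H2-K1 (ILMN_2634603) was 9.26 in the lungs of control 4, where the nearest control was 7.70. H2-D1 was 8.02 in the spleen of control 5, where the nearest control was 8.74. H2-K1 (ILMN_2795520) was 9.45 in the kidney medulla of control 4, where the nearest control was 9.92.

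The response to irradiation differed between 1 tissue and the other 5 for 7 member tests by the interaction term (limma, adjusted p under 0.05). In the kidney medulla H2-K1 (ILMN_2634603) responded more by 1.90 in group A, 2.04 in group B and 1.60 in group C. In the thyroid of group A, H2-K1 (ILMN_2795520) responded more by 1.24, H2-T23 by 1.04 (ILMN_1223179) and 1.27 (ILMN_2777471), and Tap1 by 1.04. The medulla values rest on a probe at background in all controls and have no exact size. Of the thyroid values none passed without A2, without control 2 or without control 3, and the medulla value of group C did not pass without C1, C2, control 2 or control 3.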

How the results depend on the processing

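The 5 tests with an adjusted p under 0.05 against controls became 3 with no detection filter, 0 with a replicate block (numbers that share only a label, as the check of pairing found), and 2 to 9 when each mouse was left out in turn. The counts were 2 without A1 or B3, 3 without B2 or control 1, 3 or 5, 8 without C3 and 9 without A3. Shares of all probes under the alternatives are not given, so that these counts are no result about the members alone. The replicate block left the log2 ratios of H2-K1 (ILMN_2634603) at 1.95 in group A and 2.15 in group B of the medulla, with adjusted p of 0.0671 and 0.0516. The 0 regulated tests became 1 with trend and robust variance, 3 with only the irradiated group and controls in the fit, and 0 to 4 without single mice. Between irradiated groups, 0 tests became 1 with no background correction, 1 with trend and robust variance, and 0 to 4 without single mice. For group C against the sum, 0 became 1 with trend and robust variance and 0 to 2 without single mice. The 57 tissue differences in controls ranged from 51 to 58 without single mice. The 7 interaction calls became 4 with probes detected in every tissue, 3 without the thyroid and 2 to 11 without single mice; they numbered 3 without A2, 4 without control 1, 2 without control 2 or 3 and 11 without A3. Psmb9 in group B of the medulla passed with only that group and the controls (adjusted p = 0.0223, limma). Its probe met the detection rule there only through irradiated mice. No called result changed its direction under any alternative run. A BeadChip block was not run. Signals near background limit H2-K1 (ILMN_2634603), Tap1 and Psmb9 in the medulla and thyroid. The cause of these changes was not tested.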

Other observations

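Targets of p53, the stress response factor that acts after DNA damage, were read beside the class I genes in the kidney medulla. Of 9 detected targets (13 listed), 1, 6 and 7 were higher in groups A, B and C at an unadjusted p under 0.05 by their brightest probes, beside 22.9%, 21.7% and 26.6% of all genes in either direction. In group B, Ccng1 (0.76 to 0.86 over 3 probes), Phlda3 (1.35, adjusted p = 0.00467) and Trp53inp1 (2.04, adjusted p = 0.00592, limma) were regulated, while no class I or antigen processing probe was. The difference between these lists was not tested.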
